A study of Arabidopsis thaliana with 4 samples.

Results

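A set of 29 Arabidopsis thaliana loci, known in the array annotation only by a locus code, was dim in control seedlings and bright in seedlings in which the embryo regulator LEAFY COTYLEDON1 (LEC1) had been induced. The loci were chosen by their measured signals. A probe set, the group of short probes on the array that reads 1 transcript, was taken if it was annotated to a single gene without a name, if it lay below the 40th percentile of the same array on both control arrays and if it lay above the 70th percentile on both induced arrays. Array controls were left out, and so were 12 loci that the rule lists by code. Of 11933 probe sets annotated to a single unnamed locus, 36 met these limits, 7 of the 12 left-out loci were among those, and 29 remained. Each of the 29 has 1 probe set of its own in the annotation, so no second probe set checks any of them here.

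The samples were whole 4-day-old seedlings of the Columbia ecotype, all of which carried pER8-LEC1, a transgene that estradiol switches on. LEC1 induced seedlings germinated and grew with 0.01 mM estradiol, and control seedlings with 0.1% DMSO and no estradiol, both on half-strength Murashige and Skoog medium with sucrose under continuous light. Each group had 2 biological replicates hybridized to Affymetrix ATH1 arrays, 4 arrays in all. The labels do not say whether 1 or several transgenic lines were used. No seedlings without the transgene were given estradiol in these samples, so LEC1 and estradiol itself cannot be told apart. For the induced seedlings no DMSO is listed, so whether the groups also differed in DMSO is not known here.

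LEC1 is a subunit of the nuclear factor Y complex, a transcription factor that contacts DNA at the CCAAT box. It is known for its part in embryo development and in seed maturation, the phase in which an embryo fills with storage protein and oil and acquires tolerance to drying. In seedlings this programme is normally shut down after germination, and forced expression of LEC1 is known to bring embryo traits back. A code such as AT3G63040 gives only the chromosome, here chromosome 3, and the order of the gene along it. The gene table of assembly TAIR10.1 lists the 29 loci as genes with no name beyond the code or the labels of the genomic clones that carry them, so no function is assigned to any of them here.

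Signals are linear MAS5 values in arbitrary units. The median signal of the induced arrays was 39.4 on replicate 1 and 22.3 on replicate 2, and that of the control arrays 20 and 15.5, so the arrays were not on 1 level as deposited. Values per array are given as deposited. Folds and log2 differences use quantile-normalized signals, in which each array has the same distribution and ranks within an array are kept. The control limit of the rule corresponds to a normalized signal of 13.9, called the dim limit. Every locus was under it on both control arrays by the choice itself, so each fold is a lower bound, the mean induced signal (n = 2) over the dim limit. Detection calls are not used here, so a dim signal is not shown to be the absence of RNA. Whole seedlings were measured, so more cells of a type and more RNA per cell cannot be told apart.

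Across the 29 loci, signals on the induced arrays ran from 143.6 to 6922.4 (median 491) on replicate 1 and from 54.3 to 3767.3 (median 118.3) on replicate 2. Signals on the control arrays ran from 0.4 to 11.9 (median 5.4) on replicate 1 and from 0.2 to 9.5 (median 3.6) on replicate 2. Both induced arrays were therefore above both control arrays at all 29, which the rule fixes. The same order was seen in 29.3% of all 14433 probe sets kept for testing. The median lower bound was 4.07 on the log2 scale, with a range of 2.42 to 8.42. From the replicate 1 arrays alone it was 4.62 and from those of replicate 2 it was 3.25, where the median difference of all kept probe sets was -0.01 and 0.02.

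**Figure D1:**
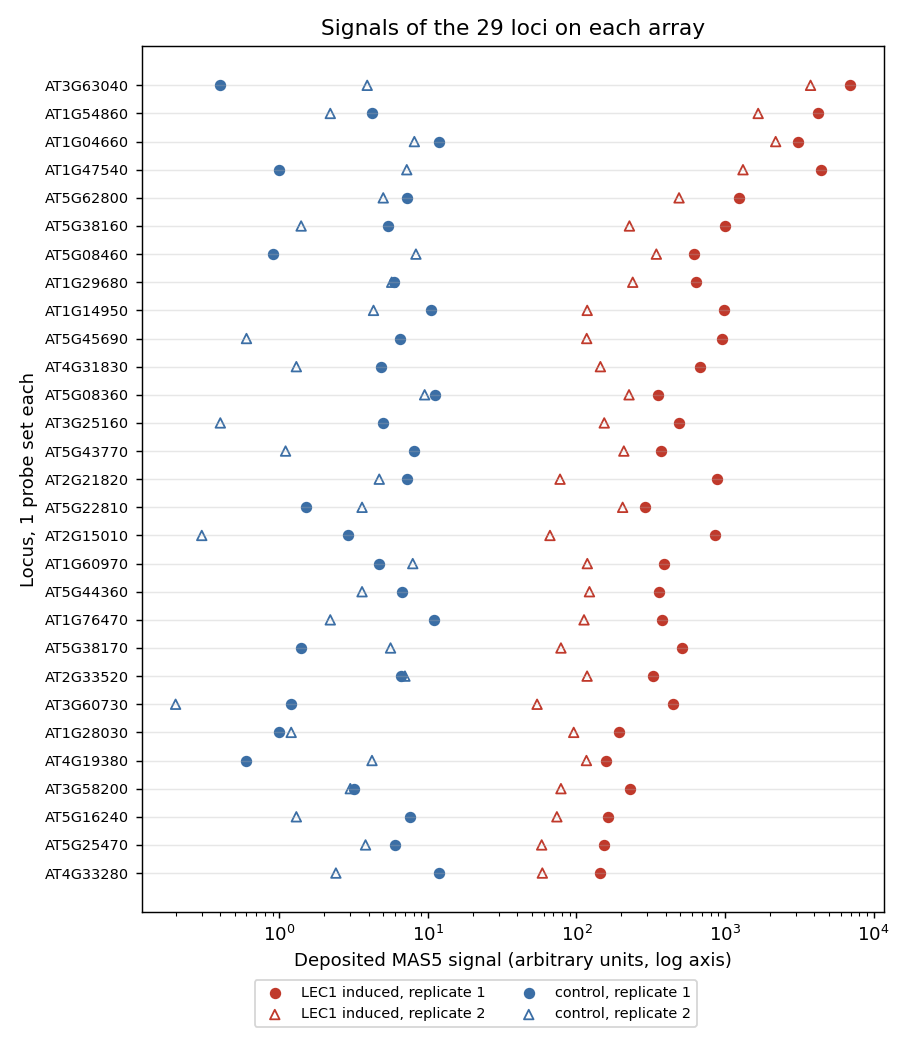
Deposited MAS5 signal (log axis) of each of the 29 loci on the LEC1 induced arrays (red) and the control arrays (blue), with circles for replicate 1 and triangles for replicate 2. The control signals do not exceed 11.9 and the lowest induced signal is 54.3, and in each row the red circle lies right of the red triangle.

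AT3G63040, AT1G54860 and AT1G04660 ranked above the 99th percentile on both induced arrays. AT3G63040 had signals of 6922.4 and 3767.3 in LEC1 induced seedlings, against 0.4 and 3.9 in control seedlings. This was at least 343-fold higher (normalized log2 signal 12.22 ± 0.16 in induced seedlings, SD, n = 2). It ranked at percentile 99.9 on both induced arrays, and at percentiles 2.4 and 23.2 on the control arrays. AT1G54860 gave 4259.2 and 1672.3 in induced seedlings and 4.2 and 2.2 in control seedlings, at least 196-fold higher (11.41 ± 0.54). AT1G04660 gave 3088.5 and 2193.7 against 11.9 and 8.1 in control seedlings, at least 193-fold higher (11.39 ± 0.10). The induced arrays ranked AT1G04660 alike, at percentiles 99.5 and 99.6, while its control signals lay just inside the limit, at percentiles 39.4 and 36.3. These ranks place a probe set among the others of its array and do not measure amounts of RNA between genes.

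A further 7 loci ranked above the 90th percentile on both induced arrays, with lower bounds of 17.6-fold to 176-fold. AT1G47540 had 4409.3 and 1321.6 in LEC1 induced seedlings and 1.0 and 7.2 in control seedlings (at least 176-fold, normalized log2 signal 11.25 ± 0.81 in induced seedlings, SD, n = 2). AT5G62800 had 1241.7 and 490.5 in induced seedlings and 7.2 and 5.0 in control seedlings, at least 53.4-fold higher. The induced signals of these 2 loci were lower on replicate 2, by more than the overall difference in brightness between the induced arrays. AT5G08460 had 622.0 and 345.0 in induced seedlings and 0.9 and 8.3 in control seedlings, at least 30.3-fold higher. AT5G08360, 12 places from it in gene order on chromosome 5, had 354.2 and 225.9 in induced seedlings and 11.2 and 9.5 in control seedlings, at least 17.8-fold higher. AT5G43770 had 371.8 and 208.4 in induced seedlings and 8.1 and 1.1 in control seedlings, at least 17.6-fold higher. These 3 loci were nearly equal on both induced arrays once normalized, with SDs of 0.07, 0.10 and 0.04 on the log2 scale. AT1G29680 gave 634.2 and 239.2 in induced seedlings against 5.9 and 5.7 in control seedlings, at least 25.5-fold higher. The remaining locus, AT5G38160, lies next to AT5G38170 and is given with it.

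The lower of the 2 induced ranks lay between the 80th and 90th percentiles at 11 loci, with lower bounds of 8.12-fold to 22.4-fold. In 3 of them the induced signal on replicate 1 was far above that on replicate 2. AT1G14950 had 983.6 and 118.1 in LEC1 induced seedlings and 10.5 and 4.3 in control seedlings. AT5G45690 had 958.9 and 117.2 in induced seedlings and 6.5 and 0.6 in control seedlings. AT4G31830 had 683.2 and 144.9 in induced seedlings and 4.8 and 1.3 in control seedlings. Their bounds of 22.4-fold, 22.0-fold and 20.4-fold are therefore uneven, and the replicate 2 arrays alone gave at least 9.48-fold, 9.37-fold and 11.6-fold.

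In AT5G22810 and AT4G19380 the order of the induced arrays was the other way round after normalization. AT5G22810 had 290.1 and 204.6 in LEC1 induced seedlings and 1.5 and 3.6 in control seedlings, at least 15.2-fold higher. AT4G19380 had 159.2 and 116.7 in induced seedlings and 0.6 and 4.2 in control seedlings, at least 8.12-fold higher. The induced ranks were percentiles 89.2 and 91.1 for AT5G22810 and 80.6 and 84.6 for AT4G19380. AT1G28030 was nearly even, with 194.7 and 95.8 in induced seedlings and 1.0 and 1.2 in control seedlings, at least 8.16-fold higher. Dim control values such as these have no reliable order.

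The other 5 loci of this range showed an intermediate gap between the induced arrays. AT3G25160 had 491.0 and 153.8 in LEC1 induced seedlings and 5.0 and 0.4 in control seedlings. AT1G60970 had 390.2 and 118.3 in induced seedlings and 4.7 and 7.9 in control seedlings. AT1G76470 had 375.1 and 112.4 in induced seedlings and 10.9 and 2.2 in control seedlings. After normalization each of these 3 was about 2-fold brighter on induced replicate 1 than on the other (ratios of 1.98, 1.98 and 2). AT5G44360 had 361.8 and 122.3 in induced seedlings and 6.7 and 3.6 in control seedlings, and AT2G33520 had 325.8 and 117.9 in induced seedlings and 6.6 and 7.0 in control seedlings. The lower bounds of the 5 were 12.1-fold for AT2G33520, 12.8-fold for AT1G76470, 13.1-fold for AT5G44360, 13.4-fold for AT1G60970 and 17.6-fold for AT3G25160.

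At 8 loci the lower induced rank lay between the 70th and 80th percentiles, and in all 8 this was the rank on replicate 2. AT2G15010 had 853.8 and 66.3 in LEC1 induced seedlings and 2.9 and 0.3 in control seedlings. AT2G21820 had 879.1 and 77.5 in induced seedlings and 7.2 and 4.7 in control seedlings. AT3G60730 had 444.7 and 54.3 in induced seedlings and 1.2 and 0.2 in control seedlings. On replicate 1 these loci ranked at percentiles 96.8, 96.9 and 93.0, and on replicate 2 at percentiles 74.9, 77.9 and 70.6, so their membership rests on a replicate 2 signal not far above the limit. Their bounds were 15.2-fold, 16.8-fold and 9.50-fold from both pairs of arrays, and 5.09-fold, 6.04-fold and 4.14-fold from the replicate 2 arrays alone.

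The remaining loci of that range, apart from AT5G38170, lay not far above the 70th percentile on induced replicate 2, with signals of 58.3 to 78.6 there. AT3G58200 had 229.7 and 78.6 in LEC1 induced seedlings and 3.2 and 3.0 in control seedlings (at least 8.07-fold). AT5G16240 had 162.3 and 73.8 in induced seedlings and 7.6 and 1.3 in control seedlings (at least 6.43-fold). AT5G25470 had 154.0 and 58.3 in induced seedlings and 6.0 and 3.8 in control seedlings (at least 5.52-fold). AT4G33280 had 143.6 and 58.9 in induced seedlings and 11.9 and 2.4 in control seedlings (at least 5.34-fold). AT4G33280 was near both limits, at percentile 72.5 on induced replicate 2 and percentile 39.4 on control replicate 1.

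AT5G38160 and AT5G38170 lie side by side on chromosome 5, the only pair of immediate neighbours among the 29. AT5G38160 had signals of 999.0 and 227.3 in LEC1 induced seedlings, against 5.4 and 1.4 in control seedlings, at least 31.7-fold higher. AT5G38170 had 510.0 and 78.6 in induced seedlings, against 1.4 and 5.6 in control seedlings, at least 12.6-fold higher. Both were brighter on induced replicate 1, by 1.5 and 2.06 on the normalized log2 scale. Their bounds are therefore uneven, and the replicate 2 arrays alone gave at least 18.8-fold and 6.13-fold. The next gene along, AT5G38180, had 100.9 and 24.4 in induced seedlings and 0.6 and 12.1 in control seedlings and missed the threshold over all probe sets (limma adjusted p = 0.204, and 0.042 to 0.483 under 12 limma alternatives, where only leaving out control replicate 2 gave a pass). Whether probes of these adjacent genes pick up each other's transcripts was not tested. AT5G38195, 3 places from AT5G38170, had 164.5 and 21.7 in induced seedlings and 2.6 and 2.6 in control seedlings. It failed the limits on induced replicate 2 alone and also missed the threshold over all probe sets (log2 difference 3.87, limma adjusted p = 0.0517).

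By locus code, 11 of the 29 loci lie on chromosome 5, 8 on chromosome 1, 4 on chromosome 3 and 3 each on chromosomes 2 and 4. Chromosome 5 thus held 37.9% of them, against 22.6% of all probe sets of unnamed loci, and chromosome 1 held 27.6% against 26.0%. The 7 left-out loci that met the limits are not in the shares of the 29. Of those 7, AT5G44310 lies on chromosome 5 and the others lie elsewhere. The shares of all unnamed loci include the left-out loci. These shares are given as a description with no test.

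The edge of the selection was not sharp. Just inside the control limit, AT5G08360 reached percentile 39.6, and just outside it AT1G68470 (172.7 and 118.0 in LEC1 induced seedlings, 12.2 and 8.9 in control seedlings) and AT1G24735 (241.1 and 72.3 in induced seedlings, 12.3 and 9.5 in control seedlings) reached percentiles 40 and 40.2. AT4G25980, with 433.4 and 349.2 in induced seedlings and 12.6 and 6.8 in control seedlings, was left outside by a rank at percentile 40.7 on control replicate 1. On the induced side AT3G60730 was the last one in, while AT1G09500 (212.4 and 52.7 in induced seedlings, 0.9 and 0.3 in control seedlings) ranked at the 70th percentile on induced replicate 2 without exceeding the limit. AT1G01250 and AT1G27990 followed outside, at percentiles 69.0 and 68.9. The limits were met by 0.243% of the probe sets of unnamed loci, the 12 left-out loci apart.

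The number of loci that met the limits depended on single arrays, most on LEC1 induced replicate 2. Without LEC1 induced replicate 2 the limits on the other 3 arrays were met by 61 loci, and without LEC1 induced replicate 1 by 31. Thus 32 further loci failed on induced replicate 2 alone, where they ranked between percentiles 13.5 and 70 (median 56.1), and 2 failed on induced replicate 1 alone. Without control replicate 1 the count was 46, and without control replicate 2 it was 34, so 17 and 5 loci failed on those arrays alone. With limits at the 30th and 80th percentiles 12 of the 29 remained and no locus was added, and with limits at the 50th and 60th percentiles there were 106 loci, the 29 among them.

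The 29 loci differed between the 2 induced arrays, a difference that the selection rule did not use, although it set a lower limit on both arrays. After normalization 25 of the 29 were brighter on LEC1 induced replicate 1. The median difference, replicate 1 minus replicate 2, was 0.76 on the log2 scale, with quartiles of 0.23 and 1.5 and a range of -0.40 for AT4G19380 to 3.15 for AT2G15010. It exceeded 1 at 10 loci, AT1G76470 lying at 1.00, and was below -1 at none. The loci with differences over 2 were AT2G15010, AT2G21820, AT1G14950, AT5G45690, AT3G60730 and AT5G38170. At the other end AT5G22810, AT1G04660 and AT5G08360 were brighter on replicate 2, with differences of -0.29, -0.14 and -0.14.

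Other probe sets that were bright on both induced arrays did not show this tilt as a whole. Among 5852 of them, 44.5% were brighter on induced replicate 1, the median difference was -0.07, and 5.28% exceeded 1, against 34.5% of the 29 loci. Most of the 5852 were bright on all 4 arrays. Among these 4749 the median was -0.13, and 40.7% were brighter on induced replicate 1. Those of the 5852 that were not bright on both control arrays were not counted apart, so their tilt is not given. The tilt was shared by other probe sets under the same limits, since 7 of 7 genes with a name, 6 of 7 left-out loci and 35 of 41 probe sets with several genes or no name here were brighter on induced replicate 1, with medians of 0.90, 0.34 and 0.38. Of 379 probe sets that rose in limma and are not among the 29, 281 (74.1%) were brighter on replicate 1. The 379 include probe sets of the groups just given under the same limits, so these counts overlap. Each replicate is 1 array, so no test of this difference was made. Under median centring 25 of the 29 loci were again brighter on replicate 1 (median 0.65), and as deposited all 29 were (median 1.47, against 0.75 over all kept probe sets).

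**Figure D2:**
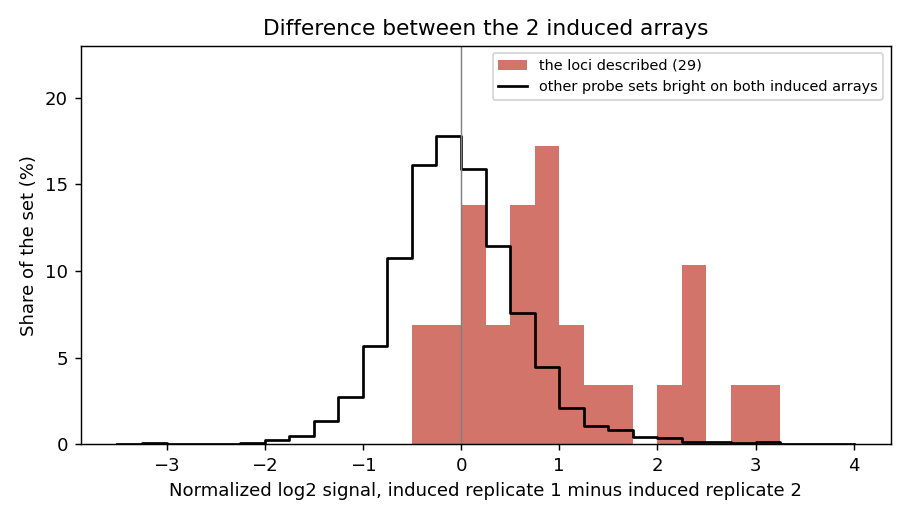
Share of probe sets (vertical axis, %) by normalized log2 signal on LEC1 induced replicate 1 minus that on induced replicate 2, for the 29 loci (red bars) and for other probe sets bright on both induced arrays (black line). The loci extend to 3.15 with a median of 0.76, and the other probe sets centre at -0.07.

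In ranks, which quantile normalization keeps and which the rule used, the same gap reads as follows. The percentile on induced replicate 1 exceeded that on replicate 2 by more than 10 points at 6 of the 29 loci and differed by less than 5 points at 13. The largest gap was 22.4 points for AT3G60730, and the largest the other way was -4.0 points for AT4G19380. Loci near the top of the arrays have little room to differ in rank.

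**Figure D3:**
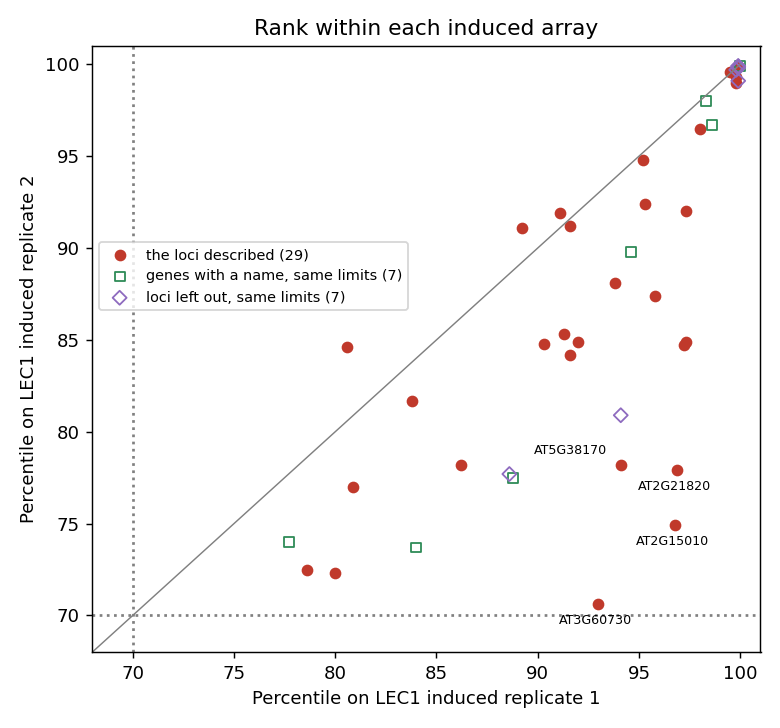
Percentile of each probe set on LEC1 induced replicate 2 (vertical axis) against induced replicate 1 (horizontal axis) for the 29 loci and for genes with a name and left-out loci that met the same limits, with the 70th percentile dotted and a diagonal for equal ranks. Most points lie below the diagonal, and AT3G60730, AT2G15010, AT2G21820 and AT5G38170 lie farthest below it.

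Genes with a name that met the same limits numbered 7 of 1580 probe sets (0.443%), against 36 of 11933 for unnamed loci (0.302%). Probe sets with several genes or none in the annotation met them at 41 of 9233 (0.444%), and may include further genes with a name. The 7 were SFP2 and ATOEP16-2, PAP85, a vicilin-like seed storage protein, EEL, a bZIP transcription factor of seed maturation, AGL67, a MADS-box transcription factor, AOP3 of glucosinolate side-chain modification and AtVEX1, a sugar transporter of the SWEET family. Their differences between induced replicate 1 and replicate 2 ran from 0.18 to 1.17 on the normalized log2 scale. AGL67 had 198.1 and 62.6 in LEC1 induced seedlings and 0.3 and 0.7 in control seedlings, and EEL had 561.8 and 179.5 in induced seedlings and 7.4 and 7.7 in control seedlings. The reverse limits, bright on both control arrays and dim on both induced arrays, were met by 6 unnamed loci.

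Across all 14433 kept probe sets, limma called 408 higher (2.83%) and 420 lower (2.91%) in LEC1 induced seedlings. All 29 loci were among those called higher, a count that rests on the same arrays as their selection and says nothing further about them. The split of calls depended on scaling, with 494 higher and 97 lower as deposited, where the median of all kept probe sets was shifted by 0.62 on the log2 scale, and 447 higher and 962 lower under median centring, with a shift of -0.14. Without LEC1 induced replicate 1 the calls were 322 higher and 704 lower, and without induced replicate 2 they were 630 higher and 1132 lower. Without control replicate 1 they were 194 higher and 15 lower, and without control replicate 2 they were 151 higher and 4 lower. With 1 array left out, the spread comes from the 2 arrays of the other group alone, and the lone array is assumed to vary like them. In the annotation used here, few genes of fixed marker lists had a probe set of their own. It gives no gene for 8730 probe sets, and probe sets of other listed genes may be among those. Of 14 embryo regulators, 3 had a probe set of their own and 2 of these were kept for testing, of which EEL rose (limma adjusted p = 0.00359). BZIP53 had a log2 difference of 0.31 ± 0.43 SE (adjusted p = 0.67), which turned below 0 under median centring. BBM, an AP2-type transcription factor, was removed by the filter, with signals of 30.9 and 9.2 in LEC1 induced seedlings and 5.6 and 0.7 in control seedlings. Both measured storage genes of 12 rose, PAP85 (4.06e-05) and the oil body gene OLEO3 (1.19e-04). Of 8 green tissue genes the 1 measured, LHCB4.1, fell by 0.94 ± 0.19 SE on the log2 scale (0.0446). Its call was lost under 5 of 13 limma alternatives, among them the values as deposited and leaving out control replicate 1 or 2, where the log2 difference was -0.96, -0.97 and -0.94. Of 10 root genes, EXPA7 and EXPA18 were measured and did not pass (log2 differences of -1.23 ± 0.44 SE and -1.75 ± 0.41 SE, adjusted p = 0.142 and 0.0594). EXPA18 passed under 5 of 13 limma alternatives, with adjusted p down to 0.0101, and EXPA7 passed without LEC1 induced replicate 2 (0.0318). Of 5 shoot meristem genes CLV3 alone had a probe set in the annotation, at signals of 0.7 and 5.3 in induced seedlings and 1.0 and 1.0 in control seedlings. LEC1 has no probe set of its own in the annotation, so the labels could not be checked on it.

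Genes that flank the 29 loci were compared next. They were not picked for their signals, but any of the 29 that flank another were left out. This removed AT5G38160 and AT5G38170, so counts of flanking genes that rose are lower than with this pair. Up to 5 protein-coding genes on each side in the gene order of TAIR10.1 gave 280 neighbours, of which 81 were measured by probe sets of their own. Of these, 5 rose (6.17%) and 2 fell (2.47%), against 2.83% and 2.91% of all kept probe sets. Their median log2 difference was -0.13, and 39 of 81 were higher in LEC1 induced seedlings. Without normalization 9 rose and 0 fell, and under median centring 6 rose and 7 fell. Without LEC1 induced replicate 1, 2 rose and 3 fell, and without induced replicate 2, 4 rose and 8 fell. Without control replicate 1, 2 rose and 0 fell, and without control replicate 2, 3 rose and 0 fell.

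Among the 19 measured genes next to one of the loci, AT5G38160 and AT5G38170 not counted, 0 rose and 1 fell in limma. At an unadjusted p under 0.05, 3 were higher and 4 lower. The fall was that of AT1G14960, next to AT1G14950, with signals of 81.4 and 42.0 in LEC1 induced seedlings and 178.1 and 143.0 in control seedlings (log2 difference -2.03 ± 0.30 SE, limma adjusted p = 0.0224). Its call was lost as deposited (log2 difference -1.45, adjusted p = 0.152) and without control replicate 1 or 2, where the difference was as large, at -2.04 and -1.93. AT1G14940, on the other side of AT1G14950, had 154.3 and 15.1 in induced seedlings and 3.3 and 0.7 in control seedlings, short of the threshold (limma adjusted p = 0.0926). AT1G54870, next to AT1G54860, had 999.8 and 25.9 in induced seedlings and 4.8 and 0.5 in control seedlings and missed it as well (0.0793). AT5G16230, next to AT5G16240, had 47.4 and 29.3 in induced seedlings and 5.8 and 4.4 in control seedlings (0.0651). AT1G14940, AT1G54870 and AT5G16230 passed with the replicate number as a block (limma adjusted p = 0.027, 0.00145 and 0.0406), and the first 2 of them also without normalization. AT5G16230 passed with an offset of 16 (0.0398) and with a prior without a trend (0.0384) as well. The signal of AT1G54870 on induced replicate 2 was close to that array's median.

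**Figure D4:**
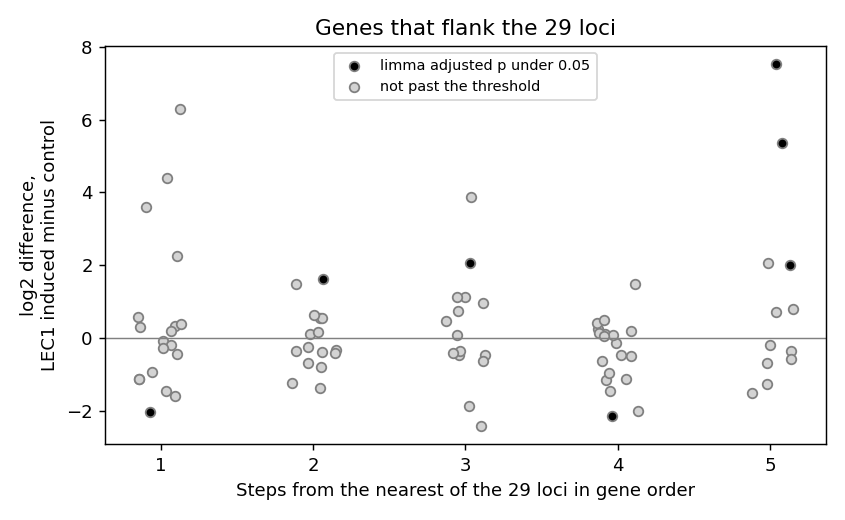
Log2 difference, LEC1 induced minus control (normalized scale), of the 81 measured genes that flank the 29 loci, by their distance in gene order, with black points past a limma adjusted p of 0.05. The 29 loci themselves are not plotted. Points scatter around 0 at each distance, with 5 black points above 0 and 2 below.

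The 5 flanking genes that rose lay 2 to 5 places away. AT1G27990, 5 places from AT1G28030, had 383.3 and 50.4 in LEC1 induced seedlings and 0.4 and 0.9 in control seedlings (limma adjusted p = 0.0231). It is also the locus that missed the limit on induced replicate 2 at percentile 68.9. AtVEX1, 5 places from AT5G62800, had 281.5 and 75.7 in induced seedlings and 4.3 and 1.4 in control seedlings (0.0117). AT5G44380, 2 places from AT5G44360, had 504.3 and 338.2 in induced seedlings and 119.5 and 84.2 in control seedlings, a log2 difference of 1.63 ± 0.29 SE (0.0331). The calls of AT1G27990 and AtVEX1 held under the 11 limma alternatives in which they were tested. Without either induced array the filter removed both, so their rise was not checked there. The call of AT5G44380 was lost without either control array and with a prior without a trend. In the methods' t-test at 0.05, 0 flanking genes rose. AT5G08430, 3 places from AT5G08460, had 136.0 and 52.1 in induced seedlings and 10.6 and 15 in control seedlings (0.0481, lost under 6 of 13 alternatives). FaTA, an acyl-ACP thioesterase of plastid fatty acid synthesis 5 places from AT3G25160, had 169.0 and 67.2 in induced seedlings and 15.6 and 17.7 in control seedlings (0.0349, lost under 5 of 13). The second fall was that of AT5G62840, 4 places from AT5G62800, with 30.1 and 16.5 in induced seedlings and 80 and 48.6 in control seedlings (0.0223, lost under 3 of 13).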

How the data were processed

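Per the submitters' processing notes, MAS5 gave the deposited signal intensity of each probe set on a linear scale. The labels' protocols give a 2-cycle amplification. The scaling target is not given in the sources used here. Of 22810 probe sets, 64 array controls were left out. The platform annotation gave 13513 probe sets 1 gene, 503 several and 8730 none, and 11885 of 11933 unnamed loci matched the gene table of TAIR10.1. The 29 loci, the lists and the tests were chosen with earlier results of these data known.

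Values under 0.1 (8 values) were raised to 0.1, and log2 values were quantile normalized. The 14433 probe sets above the 40th percentile of their array on at least 2 arrays were kept. The fit used limma 3.58.1 under R 4.3.3 (lmFit, and eBayes with a trend) and was two-sided, with p-values adjusted by Benjamini-Hochberg across these probe sets and called at 0.05. It had 2 residual degrees of freedom and a prior worth 4.39. The p-values measure the spread between 2 arrays a group, which limits precision. The fit was tested on simulated data. The simulated noise was independent between arrays, so arrays of the same replicate number that deviate together were not covered. All 29 loci are named, since they number under 40. Product families, promoters and proteins, which the plan lists, were not analysed here.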

Additional observations from a re-analysis of the deposited data

How the results depend on the processing

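The median log2 difference of the 29 loci was 6.08 with dim signals as measured, 4.07 with signals under the dim limit set to it and 3.57 with an offset of 16, and 5.71 to 6.63 when 1 array was left out. The number of loci meeting the limits was 12 at the 30th and 80th percentiles, 106 at the 50th and 60th, and 31 to 61 when 1 array was left out. With percentiles over probe sets of 1 gene, 30 loci met them, 22 of them among the 29. Over 8 alternatives, 50 of 232 lower bounds of single loci moved by more than the SD between the induced arrays, and the lowest of all was 3.01-fold. Their sign is fixed by the choice of the loci.

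Calls over all probe sets numbered 828, and 1409 under median centring, 381 without a trend in the prior, 396 in the methods' t-test at their false discovery rate of 0.2 and 2 with it at 0.05, and 155 to 1762 when 1 array was left out. The 29 loci numbered 18, 6 and 0 among the calls without a trend in the prior and in the methods' t-test at 0.2 and 0.05 (18 at an unadjusted p under 0.05), and 22 to 26 without a control array. Without an induced array the filter removes all 29, so no count was made. Flanking genes that rose numbered 9 without normalization, 3 each without the filter and without a trend in the prior, 2 and 0 in the methods' t-test (9 unadjusted) and 2 to 4 when 1 array was left out, and those that fell 0 to 8. BZIP53 turned to -0.14 under median centring, -0.16 without LEC1 induced replicate 1 and -0.04 without control replicate 1, within a range of -0.16 to 0.8 when 1 array was left out.

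With the replicate block 2583 probe sets were called, and 12 flanking genes rose and 11 fell. The median difference of the 29 loci, which a block cannot move in this balanced design, was 6.56 and 5.51 within replicates 1 and 2 (6.08 with the block). Arrays of the same number deviated together (correlation 0.31 over probe sets), but with 2 pairs the samples share only a number. The alternatives on promoters were not run, as no promoter sequences were used here. Signals near the background limit the control values.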

Other observations

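Some unnamed loci met the limits on all arrays but LEC1 induced replicate 2 with a wide gap between the induced arrays, and these examples were chosen after their values were seen. AT5G07330 had 638.3 and 43.1 in LEC1 induced seedlings and 0.7 and 6.2 in control seedlings. AT3G05260 had 424.7 and 12.9 in induced seedlings and 3.9 and 3.3 in control seedlings, and AT1G75490 had 340.7 and 31.7 in induced seedlings and 0.9 and 0.9 in control seedlings. AT2G34700 is absent from the 29 for the opposite reason, with ranks at percentile 99.9 on both induced arrays and at percentiles 40.7 and 33.4 on the control arrays.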
